A study of Salmo salar with 26 samples.

Results

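The cataract difference of the Atlantic salmon (Salmo salar) lens transcriptome was compared between diploid and triploid fish. The quantity examined is the interaction, the triploid difference (3N+ minus 3N-) minus the diploid difference (2N+ minus 2N-), taken for each transcript over all 26 lenses of the series. The groups were diploid fish without cataract (2N-, 6 lenses), diploid fish with cataract (2N+, 6 lenses), triploid fish without cataract (3N-, 6 lenses) and triploid fish with cataract (3N+, 8 lenses). Each lens came from its own fish, and the labels record sorting by ploidy and no other treatment; they give weight and length but no strain, age or cataract score. The table holds 26681 unigenes, which are assembled transcript contigs named after their best protein hit, and 19532 of them had enough reads to be tested.

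A lens is made of elongated fibre cells packed with crystallins, under a thin front layer of epithelial cells that divide and supply new fibres. Cataract is the loss of transparency of this tissue, and it is a known welfare problem of farmed salmon, in which triploid fish are used because they are sterile. Triploids carry an extra chromosome set and have larger and fewer cells, so the same lens disorder is met on a different cellular background. In these bulk samples, fewer cells of a type and less RNA per cell cannot be told apart.

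The libraries held 9.76 to 11.95 M counted reads. Transcripts of lens fibre markers took 38.5 to 48.1% of the reads in the 26 libraries. Connexin 43, the gap junction protein of the epithelial layer, ran from 0.495 to 77.8 scaled RPKM (reads per kilobase and M counted reads, divided by a library scaling factor), with low and high lenses in every group. The 6 lens epithelium markers took medians of 0.0236% of reads in 2N-, 0.0526% in 2N+, 0.00989% in 3N- and 0.0157% in 3N+. In diploids and triploids, connexin 43 differed by -0.21 and 0.02 (log2), clusterin by 1.08 and 1.64, and clusterin-2 by 0.97 and 1.97. Dipeptidase contigs differed by 0.01 and -0.23, -0.02 and -0.02, and 1.02 and -0.37. None of the 6 interactions had an unadjusted p below 0.05. Body weight ran from 110 to 345 g in 2N- and from 460 to 840 g in 2N+, without overlap, so that weight and cataract cannot be told apart within the diploids. It ran from 280 to 700 g in 3N- and from 270 to 885 g in 3N+. Fish 3N- 4 is recorded at 700 g and 28.5 cm, where 3N+ 7 has 670 g and 38 cm. Fish 2N- 4 is recorded at 285 g and 39 cm, where 2N- 2 has 280 g and 29.5 cm. These records were used as given. The weight interaction was -1.04 on the log2 scale, with an exact permutation p of 0.0345 (two-sided) and an adjusted p of 0.226 over the 8 single measures tested. The adjusted p was at least 0.226 for each of the 8, which also included length, counted reads, scaling factor, crystallin share, connexin 43 and the first 2 principal components.

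Along component 2 the lenses with cataract lay below those without in both ploidies. This component, which held 10.1% of the variance, ran from 18.7 to 26.1 with a median of 21.4 in 2N-, and from -44.7 to 5.51 with a median of -2.98 in 2N+. It ran from 11.4 to 19.6 with a median of 13.9 in 3N-, and from -52.8 to 12.1 with a median of -20.4 in 3N+. The diploid groups did not overlap and the triploid groups overlapped only between 11.4 and 12.1. The mean difference was -32.9 in diploids and -33.8 in triploids, and the interaction of -0.904 had an exact permutation p of 0.943 (adjusted p = 0.943). Leaving out 1 lens at a time moved that interaction between -7.64 and 3.91. The lowest lenses, 3N+ 6 and 2N+ 5, had the highest shares of surface epithelium (keratin) reads in their groups, 0.0862% and 0.0369%. The highest cataract lenses, 3N+ 2 at 12.1 and 2N+ 4 at 5.51, had the lowest shares of their groups, 0.00707% and 0.00614%. Lens 3N+ 4, at -39.8, had 0.0153%. The part of surface tissue in component 2 was not tested.

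Across unigenes the differences in the ploidies went mostly the same way where both had an unadjusted p below 0.05. At an unadjusted p below 0.05 alone, the shares of all unigenes were 12.5% in diploids (5.42% higher and 7.06% lower with cataract), 8.94% in triploids (4.26% and 4.67%) and 14.5% for the average (6.58% and 7.91%). Calls in triploids were 0.0461% higher and 0.041% lower. At an unadjusted p below 0.05 in both ploidies, 443 unigenes (2.27% of those tested) differed in the same direction, 154 higher and 289 lower with cataract. Another 28 (0.143%) differed in opposite directions, 16 of them higher in diploids and lower in triploids and 12 the reverse. At an unadjusted p below 0.01 in both, 148 had the same direction and 2 the opposite. The diploid and triploid comparisons share no lens; over all 19532 unigenes, 57.1% had the same sign, and the log2 differences had a Pearson r of 0.37 and a Spearman rank correlation of 0.23. This correlation is across unigenes, which share libraries within each comparison and are not independent replicates.

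**Figure D1:**
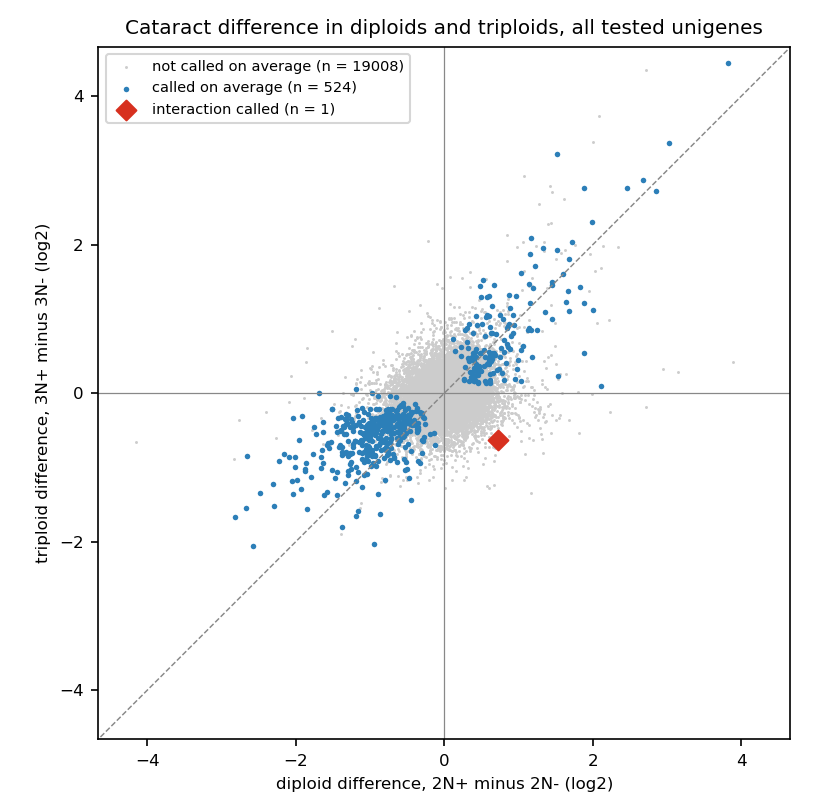
Log2 cataract difference of each tested unigene in diploids (horizontal axis, 2N+ minus 2N-) and in triploids (vertical axis, 3N+ minus 3N-); the dashed line marks equal differences. Of the 524 unigenes called on the average of the ploidies, 522 lie in the same-sign quadrants, which a call on an average favours. The single unigene called for the interaction lies in the lower right quadrant.

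Many differences passed the test within a ploidy, and 1 passed it between the ploidies. limma called 268 unigenes (1.37%) at a Benjamini-Hochberg adjusted p below 0.05 in diploids, of which 54 rose (0.276%) and 214 fell (1.1%), and 17 (0.087%) in triploids, of which 9 rose and 8 fell. It called 524 (2.68%) on the average of the ploidies, of which 159 rose (0.814%) and 365 fell (1.87%). It called 1 (0.00512%) for the interaction, and the next smallest adjusted p was 0.299. At an unadjusted p below 0.05 the interaction had 1199 unigenes (6.14%), 581 positive (2.97%) and 618 negative (3.16%). The median standard error was 0.22 for the diploid, 0.20 for the triploid and 0.30 for the interaction log2 difference. A smaller count of calls in triploids is not a test of a weaker response, because the counts were not compared between the ploidies by a test. The median 95% interval of an interaction reached 0.62 to either side.

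Of the 268 diploid calls, 234 (87.3%) had the same sign in triploids, 120 (44.8%) with an unadjusted p below 0.05 there, and 1 had the opposite sign at that level. Their median size was 1.03 in diploids and 0.40 in triploids in the same direction; these unigenes were selected on the diploid lenses, so the sizes were not compared. All 17 triploid calls had the same sign in diploids, 16 of them at an unadjusted p below 0.05, with median sizes of 1.55 in triploids and 1.15 in diploids. The ploidies shared 5 calls, which are 1.87% of the diploid and 29.4% of the triploid calls.

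The interaction call was Unigene5783, a contig of 273 bases whose best hit is beta-sarcoglycan, a member of the membrane complex that links dystrophin to the extracellular matrix in muscle. It was chosen for description after its values were seen, because its level lies below the minimum used for naming genes: it had 9 to 34 reads per library. It ran from 3.33 to 5.55 scaled RPKM with a median of 4.38 in 2N-, and from 6.70 to 8.36 with a median of 7.55 in 2N+. It ran from 5.71 to 10.3 with a median of 7.76 in 3N-, and from 3.16 to 7.12 with a median of 4.70 in 3N+. Every diploid lens with cataract lay above every diploid lens without, while the triploid groups lay the other way round and overlapped. It rose by 0.73 ± 0.16 (log2, SE) in diploids, with a limma adjusted p of 0.0227. In triploids the difference was -0.63 ± 0.15, with an adjusted p of 0.109. The interaction was -1.36 ± 0.22, with a 95% interval of -1.82 to -0.90 and an adjusted p of 0.0357. The call was lost on RPKM as deposited (-1.59), with voom without quality weights (-1.42) and with a body weight covariate (-1.26), and was kept with voom with quality weights (-1.51). It was also lost in 20 of the 26 fits that left out 1 lens. Over those 26 fits the adjusted p ran from 0.0102 to 0.114 and the log2 value from -1.44 to -1.28.

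**Figure D2:**
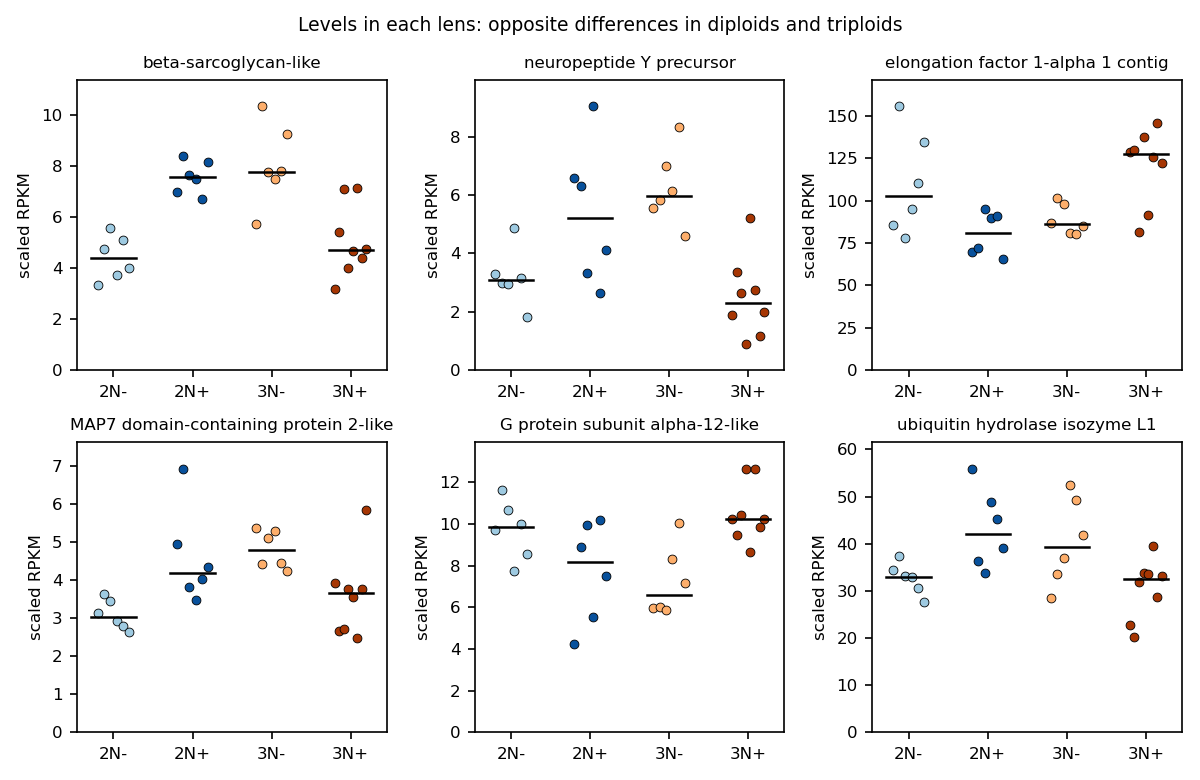
Scaled RPKM in each lens (points) and group medians (lines) of 6 unigenes whose diploid and triploid differences have opposite signs; the horizontal axis gives the group. Only the beta-sarcoglycan-like contig passed the interaction test, and its 2N+ lenses, from 6.70 to 8.36, all lie above its 2N- lenses.

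Of the 28 unigenes with opposite differences at an unadjusted p below 0.05 in each ploidy, 19 had a protein hit. The named ones below did not pass the adjusted interaction test, and their values are descriptions. Neuropeptide Y precursor (Unigene12468), the source of a peptide messenger of neurons that is also made in the retina, had the largest of these interactions. It ran from 1.81 to 4.86 scaled RPKM (median 3.08) in 2N- and from 2.63 to 9.04 (median 5.22) in 2N+. It ran from 4.58 to 8.33 (median 5.98) in 3N- and from 0.905 to 5.21 (median 2.31) in 3N+. Cataract lenses had the higher median in diploids and the lower median in triploids, with overlap in both. The interaction was -1.88 ± 0.40, with a limma adjusted p of 0.299. Defining retina transcripts (16 unigenes, none at 0 in all libraries, 5 tested) took at most 0.0207% of reads in 2N-, 0.438% in 2N+, 0.257% in 3N- and 0.0562% in 3N+; their part in the neuropeptide Y values was not tested. The 5 tested ones had interactions of -1.58 to -0.86, the same sign as neuropeptide Y, at limma unadjusted p-values of 0.21 to 0.70. Their triploid differences ran from -0.37 to 0.63, where that of neuropeptide Y was -1.28. The wider retina list had 22 of 28 interactions negative with a median of -0.26. At an unadjusted p below 0.05 it had 1 positive and 0 negative (3.57%, against 6.14% of all unigenes).

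A contig of elongation factor 1-alpha 1 (CL3596.Contig1), which brings aminoacyl-tRNA to the ribosome, had the opposite pattern. Its medians were 102.5 scaled RPKM in 2N- (77.96 to 155.6), 80.8 in 2N+ (65.3 to 95.3), 86.0 in 3N- (80.2 to 101.3) and 127.2 in 3N+ (81.8 to 145.6). The interaction was 0.84 ± 0.21 (limma adjusted p = 0.678). A G protein subunit alpha-12-like contig (Unigene5550), of a family that acts below membrane receptors, had medians of 9.86, 8.20, 6.60 and 10.2 scaled RPKM in 2N-, 2N+, 3N- and 3N+ and an interaction of 0.89 ± 0.23. A contig named after CTLA-2-beta (Unigene4223), known in mouse as a cysteine protease inhibitor, had medians of 41.6, 25.5, 30.0 and 39.3 in the same order and an interaction of 0.85 ± 0.25.

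A further pair of these contigs was higher with cataract in diploids and lower in triploids. Ubiquitin carboxyl-terminal hydrolase isozyme L1 (Unigene7931), a deubiquitinase abundant in neurons, had medians of 33.0 in 2N- and 42.2 in 2N+, against 39.4 in 3N- and 32.5 in 3N+, and an interaction of -0.78 ± 0.22. With body weight as a covariate its diploid difference of 0.38 became -0.10 and its interaction -0.38. MAP7 domain-containing protein 2-like (CL2499.Contig1), named for a microtubule-binding family, had medians of 3.03 and 4.19 in diploids and of 4.79 and 3.66 in triploids, and an interaction of -0.89 ± 0.23. The limma adjusted p of the interaction was 0.678 for each of these 5 contigs, from elongation factor 1-alpha 1 on.

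Among named proteins with a positive interaction, the smallest p belonged to the glutamate-cysteine ligase regulatory subunit (CL709.Contig2), a subunit of the rate-limiting enzyme for glutathione, the main antioxidant of the lens. It ran from 20.3 to 31.98 scaled RPKM (median 27.7) in 2N- and from 15.7 to 19.7 (median 18.4) in 2N+, without overlap. It ran from 17.0 to 23.9 (median 21.1) in 3N- and from 18.8 to 26.1 (median 22.8) in 3N+, with broad overlap. It fell by 0.55 ± 0.11 in diploids (limma adjusted p = 0.0138) and differed by 0.11 ± 0.11 in triploids (adjusted p = 0.875). The interaction of 0.65 ± 0.16 had an unadjusted p of 0.000267 and an adjusted p of 0.556. It was 0.41 on RPKM as deposited and 0.71 with body weight as a covariate. The 72 unigenes of the antioxidant and glutathione list, this one included, had a median interaction of 0.02. At an unadjusted p below 0.05, 2 were positive and 2 negative (5.56%, against 6.14% of all unigenes).

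Several unigenes were called higher in diploids and were not called in triploids, without passing the interaction test. Cytochrome P450 2K5 (Unigene10869), of a fish family of oxidising enzymes, had medians of 0.378 scaled RPKM in 2N-, 4.56 in 2N+, 5.82 in 3N- and 4.39 in 3N+. The 2N- lenses ran from 0.119 to 3.50, and the group with the lowest median was the diploids without cataract. It rose by 1.67 ± 0.43 in diploids (limma adjusted p = 0.0447), and its triploid difference was -0.37 ± 0.40 (adjusted p = 0.892). Its interaction was -2.04 ± 0.58 (adjusted p = 0.678). A solute carrier family 1 glutamate transporter (Unigene6508), which takes up the glutamate used for glutathione among other ends, showed the same order, with medians of 3.05, 6.25, 7.52 and 6.07 in 2N-, 2N+, 3N- and 3N+. It rose by 0.95 ± 0.24 in diploids (adjusted p = 0.0468), with a triploid difference of -0.26 ± 0.23 and an interaction of -1.21 ± 0.33.

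In a pair of other named contigs the diploids with cataract had the highest median. The acidic nuclear phosphoprotein 32 family member B contig (Unigene7697), a histone-binding protein, had medians of 6.80, 11.4, 7.75 and 7.72 scaled RPKM in 2N-, 2N+, 3N- and 3N+. It rose by 0.80 ± 0.17 in diploids (limma adjusted p = 0.0166), with a triploid difference of -0.04 and an interaction of -0.84 ± 0.24. A MOB-like phocein contig (CL2381.Contig1), named for a striatin complex subunit, had medians of 6.64, 13.0, 8.84 and 8.41 and rose by 0.94 ± 0.21 in diploids (adjusted p = 0.0201), with an interaction of -0.99 ± 0.28. An unannotated contig, Unigene3760, which was singled out after its values were seen, had medians of 59.3, 26.1, 38.9 and 41.8. It fell by 1.19 ± 0.19 in diploids (limma adjusted p = 0.00301), and its interaction of 1.24 ± 0.26 (adjusted p = 0.299) was called with component 1 as a covariate, and not under the other scalings, filters, tools and covariates tried.

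Other negative interactions of small p belonged to signalling and RNA-binding proteins with no call in either ploidy. The kinase MRCK beta-like contig (CL204.Contig2), which acts on actomyosin below Cdc42, had medians of 6.53, 6.76, 8.27 and 5.31 scaled RPKM in 2N-, 2N+, 3N- and 3N+ and an interaction of -0.61 ± 0.17. The ubiquitin ligase TRAF7 (Unigene13461) had medians of 5.51, 7.71, 8.36 and 6.14 and an interaction of -0.93 ± 0.26. Caprin-1-like (Unigene9778), an RNA-binding protein of stress granules, had medians of 7.31, 11.2, 10.3 and 9.92 and an interaction of -0.68 ± 0.20. Each of these 3 interactions had a limma adjusted p of 0.678, at unadjusted p-values of 0.00142, 0.00158 and 0.00202.

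The changes shared by the ploidies could be bounded for a part of the calls. Of the 524 unigenes called on the average, 522 had the same sign in both ploidies, against 57.1% of all tested unigenes. Opposite differences cancel in the average, so the call itself favours the same sign. Of the 524, 256 (48.9%) had an interaction whose 95% interval lay within 1 log2 unit of 0. That is within a 2-fold difference of the differences, and it held for 64.1% of all tested unigenes. These 256 comprised 90 higher and 166 lower with cataract. An unadjusted interaction p below 0.05 occurred for 84 of the 524 (16.0%), 75 of them with the larger difference in diploids and 9 with the larger in triploids. The average call and the interaction rest on the same lenses, so these counts describe the calls and were not tested.

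The medians of the ploidies were further apart for transcripts that fell than for those that rose. The 365 that fell had a median of -0.89 in diploids and -0.53 in triploids, and 304 of them were larger in diploids. The 159 that rose had medians of 0.63 and 0.59, and 89 were larger in diploids. On RPKM as deposited these medians were -0.63 and -0.48 for the same 365 and 0.90 and 0.62 for the same 159, so that the unequal part moved from the lower to the higher transcripts; 230 and 116 of them were then larger in diploids. Without the scaling factor the median of all unigenes was 0.28 in diploids, 0.03 in triploids and -0.24 for the interaction, against 0.02, -0.01 and -0.01 with it, so directions close to these shifts depend on the scaling.

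Shared rises included a Maf-like contig and a mitochondrial protein. The Maf-like contig (Unigene8519), whose relatives are activators of crystallin genes in the lens, ran from 9.33 to 12.2 scaled RPKM (median 10.7) in 2N- and from 15.1 to 18.1 (median 16.7) in 2N+. It ran from 10.1 to 15.3 (median 14.0) in 3N- and from 14.2 to 30.4 (median 19.0) in 3N+. The diploid groups did not overlap, and the triploid groups overlapped narrowly. It rose by 0.58 ± 0.10 on the average (limma adjusted p = 0.00134), with 0.60 in diploids and 0.55 in triploids, and the interaction of -0.06 had a 95% interval of -0.47 to 0.35. With body weight as a covariate the average call was lost (adjusted p = 0.0802), and the diploid and triploid differences were 0.30 and 0.50. Glycine cleavage system H protein (CL2430.Contig1), a lipoate-carrying mitochondrial protein, had medians of 11.6 and 13.7 in diploids and of 12.2 and 19.1 in triploids, where the groups did not overlap. It rose by 0.47 ± 0.08 on the average (adjusted p = 0.00134), with 0.32 in diploids and 0.61 in triploids, and an interaction interval of -0.04 to 0.62.

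Other shared rises were smaller against their spread. The transcription factor jun-B (Unigene9697), an immediate early AP-1 subunit, rose by 0.55 ± 0.15 on the average (limma adjusted p = 0.039), with medians of 5.71 and 7.45 scaled RPKM in diploids and 5.01 and 7.80 in triploids; the call was lost with body weight as a covariate (adjusted p = 0.246). The kelch-like ECH-associated protein 1-like contig (Unigene8293), named for the sensor that holds the oxidative stress factor NRF2 in check, rose by 0.59 ± 0.16 (adjusted p = 0.0416), with medians of 6.42 and 10.1 in diploids and 8.54 and 12.1 in triploids. HEXIM protein (Unigene2967), an inhibitor of transcription elongation, rose by 0.62 ± 0.14 (adjusted p = 0.0111). Its diploid difference was 0.75 and its triploid difference 0.49, and with body weight as a covariate they became 1.21 and 0.57.

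The largest rise on the average was that of ictacalcin (Unigene4061), an S100-type calcium-binding protein described in catfish, which was singled out after its values were seen. It ran from 2.96 to 18.2 scaled RPKM (median 5.01) in 2N- and from 6.53 to 904 (median 80.3) in 2N+. It ran from 2.59 to 19.7 (median 5.32) in 3N- and from 9.09 to 1445 (median 229) in 3N+. Some cataract lenses of both ploidies lay within the range of lenses without cataract, and others far above it. It rose by 4.13 ± 0.75 on the average (limma adjusted p = 0.00277). The interaction of 0.62 ± 1.51 had a 95% interval of -2.50 to 3.74, so its spread did not allow the sizes in the ploidies to be compared. Defining transcripts of surface epithelium (8 keratin unigenes, none at 0 in all libraries) took at most 0.011% of reads in 2N-, 0.0369% in 2N+, 0.0114% in 3N- and 0.0862% in 3N+; their part in the ictacalcin values was not tested.

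N-myristoyltransferase 1 (Unigene8559), which attaches myristate to proteins, had the smallest triploid p among the named unigenes. It ran from 2.80 to 9.999 scaled RPKM (median 5.69) in 2N- and from 8.32 to 26.3 (median 13.6) in 2N+. It ran from 4.80 to 13.5 (median 6.12) in 3N- and from 13.7 to 52.0 (median 30.5) in 3N+. The triploid groups did not overlap, and the diploid groups overlapped between 8.325 and 9.999. It rose by 1.96 ± 0.33 in triploids (limma adjusted p = 0.0128), the diploid difference was 1.33 ± 0.36 (adjusted p = 0.06), and the interaction was 0.62 ± 0.49 (adjusted p = 0.919). A Rab-32-like contig (Unigene10053), related to GTPases of vesicle traffic, rose by 1.88 ± 0.31 in diploids (adjusted p = 0.00305), with a triploid difference of 1.21 ± 0.29 (adjusted p = 0.109) and an interaction of -0.67 ± 0.43.

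**Figure D3:**
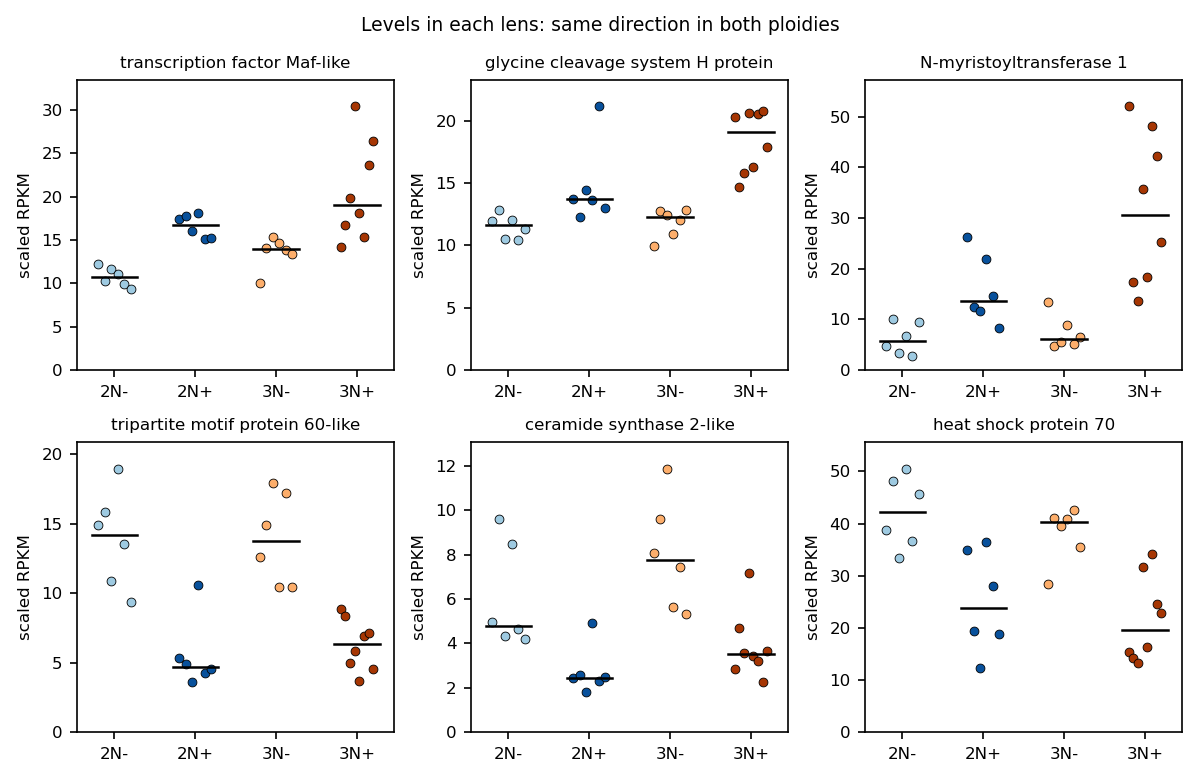
Scaled RPKM in each lens (points) and group medians (lines) of 6 unigenes with differences in the same direction in both ploidies; the horizontal axis gives the group. The upper 3 rose and the lower 3 fell on the average, for example the tripartite motif protein 60-like contig with medians of 14.2 and 4.71 in diploids and of 13.8 and 6.38 in triploids.

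Among the shared falls, the tripartite motif-containing protein 60-like contig (Unigene5114), of a family of ubiquitin ligases, was 1 of the 5 unigenes called in each ploidy. It ran from 9.34 to 18.9 scaled RPKM (median 14.2) in 2N- and from 3.62 to 10.6 (median 4.71) in 2N+. It ran from 10.4 to 17.9 (median 13.8) in 3N- and from 3.70 to 8.88 (median 6.38) in 3N+. The triploid groups did not overlap, and in diploids 1 cataract lens reached the range of those without. It fell by 1.30 ± 0.22 in diploids (limma adjusted p = 0.00399) and by 1.1027 ± 0.21 in triploids (adjusted p = 0.0265), and the interaction of 0.20 had a 95% interval of -0.43 to 0.83.

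Ceramide synthase 2-like (Unigene9745), which makes very long chain ceramides, had medians of 4.80 scaled RPKM in 2N-, 2.45 in 2N+, 7.74 in 3N- and 3.51 in 3N+. It fell by 0.98 ± 0.17 on the average (limma adjusted p = 0.0013), with -0.99 in diploids and -0.98 in triploids. Its highest median was that of triploids without cataract. A heat shock protein 70 contig (Unigene6290), an inducible chaperone, had medians of 42.2 and 23.8 in diploids and of 40.2 and 19.6 in triploids and fell by 0.85 ± 0.16 (adjusted p = 0.00314). Cdc42 effector protein 2 (Unigene10653), which shapes the actin cytoskeleton, had medians of 7.95, 3.31, 12.5 and 5.94 in 2N-, 2N+, 3N- and 3N+ and fell by 0.96 ± 0.16 (adjusted p = 0.0013). The interactions of these 3 contigs were 0.01, -0.06 and 0.02, each with a 95% interval within 1 log2 unit of 0.

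Further shared falls belonged to an adaptor of receptors and a regulator of actin. Arrestin domain-containing protein 3 (Unigene4686), an adaptor for the removal of receptors from the membrane, fell by 0.87 ± 0.15 (limma adjusted p = 0.00119), with -1.05 in diploids and -0.70 in triploids. Growth arrest-specific protein 7 (Unigene4243), a regulator of actin in neurons, fell by 0.82 ± 0.15 (adjusted p = 0.00169), with -1.01 and -0.63. Its levels were 80.9 to 142.6 scaled RPKM in 2N-, 31.3 to 81.1 in 2N+, 65.9 to 129.7 in 3N- and 43.4 to 74.2 in 3N+, with overlap in each ploidy that was narrow in diploids.

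Several of the diploid calls with the smallest p had a smaller difference in triploids. These contigs, here and in the next paragraph, were selected on the diploid lenses. That selection favours a larger diploid value, so the sizes were not compared. Borealin-2 (Unigene9252), of the chromosomal passenger complex of dividing cells, ran from 8.10 to 13.1 scaled RPKM (median 10.04) in 2N- and from 2.41 to 4.26 (median 3.68) in 2N+, without overlap. It ran from 2.75 to 12.3 (median 8.43) in 3N- and from 3.88 to 9.41 (median 5.80) in 3N+, with broad overlap. It fell by 1.43 ± 0.25 in diploids (limma adjusted p = 0.00438), its triploid difference was -0.33 ± 0.23 (adjusted p = 0.763), and the interaction was 1.1007 ± 0.34 (adjusted p = 0.678). A deltex-3-like contig (Unigene1080), named for a ubiquitin ligase of the Notch pathway, fell by 1.51 ± 0.29 in diploids (adjusted p = 0.00795), with a triploid difference of -0.21 ± 0.27 and an interaction of 1.30 ± 0.39 (adjusted p = 0.678). With body weight as a covariate the interactions of borealin-2 and deltex-3-like were 0.77 and 1.0008.

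An attractin-like protein 1-like contig (Unigene3900) fell by 1.56 ± 0.27 in diploids (limma adjusted p = 0.00399), with medians of 5.78 scaled RPKM in 2N-, 2.06 in 2N+, 4.09 in 3N- and 2.33 in 3N+. Its triploid difference was -0.74 ± 0.25 (adjusted p = 0.313) and its interaction 0.81 ± 0.37 (adjusted p = 0.781). Acyl-CoA synthetase family member 2 (Unigene6553), which activates fatty acids in mitochondria, fell by 0.94 ± 0.17 in diploids (adjusted p = 0.00567), with a triploid difference of -0.33 ± 0.16 and an interaction of 0.61 ± 0.23 (adjusted p = 0.709). The voltage-dependent calcium channel subunit alpha-2/delta-3 contig (Unigene8149) fell by 1.1995 ± 0.23 in diploids (adjusted p = 0.00795), with a triploid difference of -0.65 ± 0.21 and an interaction of 0.55 ± 0.31. All these differences had the same sign in both ploidies, and none of the interactions passed the test. The interactions of the attractin-like, acyl-CoA synthetase and calcium channel contigs were 0.97, 0.87 and 0.45 with body weight as a covariate.

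By function of the best protein hit, 37 lists were described, and none held an interaction call. Membership by wording places a few unrelated proteins in some lists. The crystallins, the refractive proteins of the fibre cells, had the largest median interaction of the 35 lists with at least 10 tested unigenes; the keratin list had a larger one on RPKM as deposited, with a pseudocount of 0.1 and with voom, with and without quality weights. Their median difference was -0.48 in diploids and -0.08 in triploids over 62 unigenes, and the median interaction was 0.46, with 59 positive and 3 negative, against 9401 positive of 19532 overall. An unadjusted p below 0.05 was reached by 10 positive and 1 negative (17.7%, against 6.14% overall), and the smallest adjusted p was 0.678. In diploids 7 of the 62 fell, where 1.1% of all unigenes did, and none rose. In triploids none was called, and 9 fell on the average, where 1.87% of all unigenes did.

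The beta and gamma families were alike in the direction of the interaction. The 38 gamma crystallins had median differences of -0.51 in diploids and -0.03 in triploids, and 37 had a positive interaction. The 22 beta crystallins had medians of -0.41 and -0.14, and 21 were positive. The median interaction was 0.49 for gamma and 0.33 for beta crystallins. An unadjusted interaction p below 0.05 was reached by 9 of the gamma and 1 of the beta crystallins, all positive. The only alpha crystallin tested had the opposite sign, with an interaction of -0.47. Gamma M5a crystallin (Unigene8714) ran from 10390 to 21400 scaled RPKM (median 12990) in 2N- and from 5757 to 13320 (median 7415) in 2N+. It ran from 11190 to 16580 (median 13800) in 3N- and from 9735 to 17350 (median 13930) in 3N+. It fell by 0.76 ± 0.20 in diploids (limma adjusted p = 0.0491), with a triploid difference of 0.02 ± 0.18 and an interaction of 0.78 ± 0.27 (adjusted p = 0.678). The most abundant, beta-crystallin B2-like (CL1905.Contig1), had medians of 56910, 43690, 58700 and 57820 in 2N-, 2N+, 3N- and 3N+ and an interaction of 0.38 ± 0.22.

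The crystallin values move with the scaling. The crystallin share of reads, which needs no factor, had medians of 43.4% in 2N- (42.0 to 47.3%), 40.02% in 2N+ (38.0 to 45.3%), 43.6% in 3N- (40.6 to 45.2%) and 41.7% in 3N+ (39.7 to 44.2%). The mean difference was -3.35 percentage points in diploids and -1.27 in triploids, and the interaction of 2.08 had an exact permutation p of 0.22 (adjusted p = 0.44). On RPKM as deposited the median crystallin interaction was 0.21 with 48 of 62 positive, where the median of all unigenes was -0.24. It was 0.55 with body weight and 0.38 with component 1 as a covariate, and between 0.35 and 0.58 without any 1 lens. At an unadjusted p below 0.05, 10 crystallins were positive in the main analysis. This count was 38 with component 1, 30 with voom with quality weights and 17 on RPKM as deposited, and lower with the replicate block. On RPKM as deposited 3 crystallins were negative at this level. Of all 19532 unigenes, 191 were then positive and 1825 negative, against 581 and 618 in the main analysis. The counts of all unigenes with component 1 and with voom are not given here. Crystallin contigs can be near-identical to one another, so reads may be split among them.

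**Figure D4:**
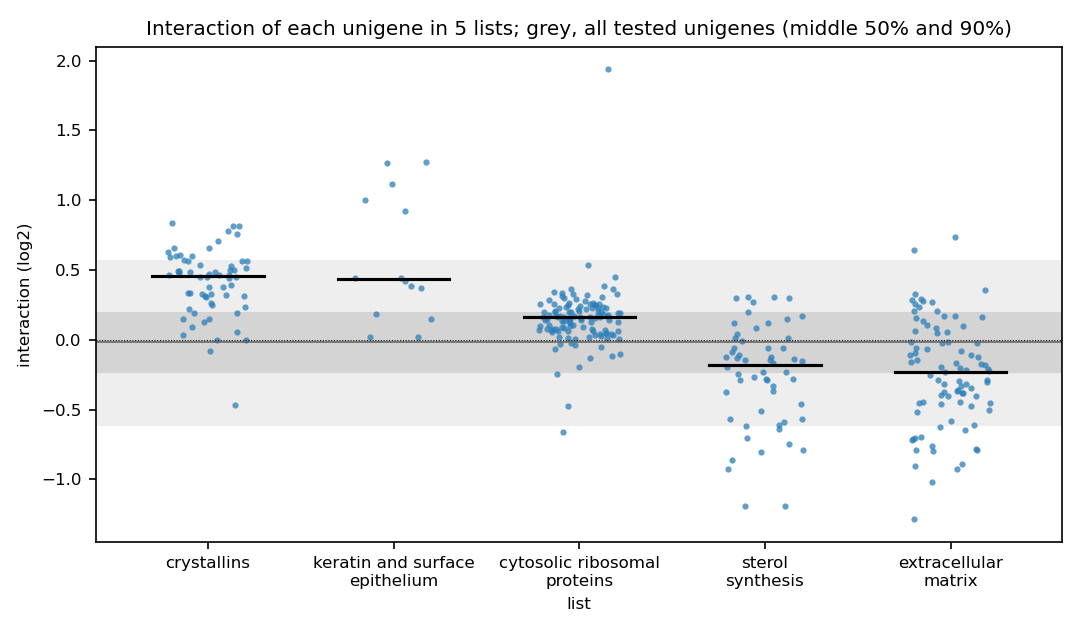
Interaction (log2, vertical axis) of each unigene (points) in 5 lists, with list medians (black lines); grey bands hold the middle 50% and 90% of all tested unigenes, from -0.23 to 0.19 and from -0.61 to 0.56. Crystallins lie mostly above the grey middle band with a median of 0.46, and sterol synthesis and extracellular matrix lie mostly below 0 with medians of -0.18 and -0.23.

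Some other fibre proteins had the same order, while the fibre structure list was mixed. Phakinin (CL833.Contig1), a beaded filament protein found in the lens, had medians of 377.6 scaled RPKM in 2N-, 231.3 in 2N+, 391.5 in 3N- and 406.4 in 3N+, and an interaction of 0.63 ± 0.28 (limma adjusted p = 0.781). The more abundant phakinin-like contig (CL984.Contig1) had medians of 3778, 2226, 4161 and 3922 and an interaction of 0.61 ± 0.28. Calpain-3-like (Unigene7886), a calcium-activated protease, had medians of 325.3, 232.3, 331.6 and 337.8. In each of these the diploids with cataract had the lowest median, and no interaction passed the test. The 19 unigenes of the fibre structure list had median differences of -0.14 in diploids and -0.11 in triploids. Their median interaction was 0.16, with 12 positive and 7 negative. At an unadjusted p below 0.05, 3 were positive and 1 negative (21.1%, against 6.14% of all unigenes). The median interaction turned to -0.09 with 8 positive on RPKM as deposited, and ran from 0.07 to 0.25 without 1 lens. The lens development regulators had a median of -0.03 over 26 unigenes; among them Sox-2 (CL858.Contig1), a transcription factor of lens induction, fell by 0.63 on the average (adjusted p = 0.0378), with -0.87 in diploids and -0.40 in triploids, a call that was lost with body weight as a covariate (adjusted p = 0.336).

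Sterol synthesis, the pathway that makes the cholesterol in which fibre membranes are rich, had the reverse sign. Its 56 unigenes had a median difference of 0.17 in diploids and -0.05 in triploids and a median interaction of -0.18, with 14 positive and 42 negative. An unadjusted p below 0.05 was reached by 10, all negative (17.9%), against 6.14% of all unigenes, of which 3.16% were negative. In diploids 1 of the 56 rose, where 0.276% of all unigenes did. Squalene monooxygenase (CL1181.Contig1), a rate-limiting enzyme of the pathway, had medians of 14.3 scaled RPKM in 2N-, 21.9 in 2N+, 17.6 in 3N- and 13.9 in 3N+. Its interaction was -0.80 ± 0.28 (limma adjusted p = 0.678) and -0.53 with body weight as a covariate. The methylsterol oxidase-like contig (Unigene4401), the most abundant of the list, had medians of 77.6, 92.1, 101.3 and 93.3 and an interaction of -0.37 ± 0.17. With body weight as a covariate that interaction was -0.19. The list median was -0.41 on RPKM as deposited, -0.32 with body weight and -0.18 with component 1, and between -0.26 and -0.15 without any 1 lens.

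Negative medians were also found in lists of ubiquitin enzymes, vesicle traffic and matrix. Ubiquitin ligases and deubiquitinases had a median interaction of -0.08 over 306 unigenes, with 6 positive and 20 negative at an unadjusted p below 0.05 (8.5%). Of all unigenes, 6.14% reached this level, 2.97% positive and 3.16% negative. Rab GTPases and clathrin coat proteins had a median of -0.11 over 96, with 1 positive and 9 negative (10.4%). Extracellular matrix had a median of -0.23 over 88, with 65 negative, but only 3 below an unadjusted p of 0.05 (3.41%); its median was -0.07 with component 1 as a covariate and ran from -0.42 to -0.04 without 1 lens, the latter without the second 2N- lens. Fibulin 4 (Unigene12337), a glycoprotein of elastic fibres, had medians of 5.85, 6.20, 6.73 and 4.64 scaled RPKM in 2N-, 2N+, 3N- and 3N+ and an interaction of -0.52 ± 0.17 (limma adjusted p = 0.678).

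Cytosolic ribosomal proteins had a narrow and uniform difference whose sign depends on the scaling. Over 117 unigenes the median was -0.07 in diploids and 0.08 in triploids. The median interaction was 0.16 and 105 were positive, where 9401 of all 19532 unigenes were. At an unadjusted p below 0.05, 2 were positive and 1 negative (2.56%, against 6.14% of all unigenes). On the deposited RPKM 24 were positive, where 4242 of all unigenes were. The median was then -0.09, and that of all unigenes -0.24. The member with the smallest p, 40S ribosomal protein SA (CL953.Contig2), went against its list: it rose by 0.78 in diploids (limma adjusted p = 0.0468), with a triploid difference of 0.12 and an interaction of -0.66 ± 0.28 (adjusted p = 0.762).

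The stress and metabolic lists lay near the background. The heat shock and chaperone list had a median interaction of 0.03 over 136 unigenes. At an unadjusted p below 0.05 the list had 4 positive and 4 negative (5.88%, against 6.14% of all unigenes). Within it, the T-complex protein 1 subunit epsilon (CL3804.Contig1), of the cytosolic chaperonin, had medians of 3.72, 5.09, 5.53 and 4.32 scaled RPKM in 2N-, 2N+, 3N- and 3N+ and an interaction of -0.67 ± 0.21 (limma adjusted p = 0.678). The most abundant member, heat shock cognate 71 kDa protein (CL574.Contig1), had an interaction of 0.06 ± 0.15 that became -0.19 on RPKM as deposited. Endoplasmic reticulum stress had none of 35 unigenes, and autophagy and lysosome none of 51, below an unadjusted p of 0.05. Oxidative phosphorylation had 4 positive and 5 negative of 129 (6.98%). Its smallest p belonged to a short contig of ATP synthase subunit alpha (CL1343.Contig4), with medians of 11.4, 12.0, 16.9 and 13.2 and an interaction of -0.65 ± 0.20.

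Glycolysis and polyols had 1 positive and 4 negative of 48 unigenes at an unadjusted p below 0.05 (10.4%, against 6.14% of all unigenes). A triosephosphate isomerase contig (CL1194.Contig9), a glycolytic enzyme, had medians of 9.50 scaled RPKM in 2N-, 17.1 in 2N+, 16.6 in 3N- and 16.1 in 3N+. The diploids without cataract had the lowest median, and its interaction was -1.02 ± 0.33 (limma adjusted p = 0.678). With body weight as a covariate its diploid difference of 0.85 became 0.34 and its interaction -0.61. Proteasome subunits had a median interaction of 0.07 over 74 unigenes, with 4 positive and 2 negative at an unadjusted p below 0.05 (8.11%). Proteasome activator complex subunit 1 (CL597.Contig2) had medians of 18.5, 11.3, 16.7 and 16.8. Its interaction was 0.62 ± 0.22, and 0.75 with body weight as a covariate. The cell cycle list had 1 positive and 5 negative of 122 (4.92%), the positive one being borealin-2. Apoptosis had 2 positive and 2 negative of 55 (7.27%). Bax inhibitor 1 (Unigene9665), an antiapoptotic membrane protein, had medians of 4.01, 3.09, 3.11 and 3.60 and an interaction of 0.54 ± 0.21.

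The membrane transport lists had more negative than positive interactions at an unadjusted p below 0.05. Of all unigenes, 6.14% reached this level, 3.16% with a negative interaction. Ion and water transport had 0 positive and 5 negative of 54 unigenes (9.26%). The smallest p among its members above the naming level was that of a gap junction alpha-8 contig (CL3137.Contig3), the fibre connexin 50. Its medians were 9.64 scaled RPKM in 2N-, 12.2 in 2N+, 12.0 in 3N- and 8.39 in 3N+, with overlap in each ploidy, and its interaction was -0.73 ± 0.34 (limma adjusted p = 0.786). Amino acid and peptide transport had 2 positive and 4 negative of 36 (16.7%), among them the glutamate transporter above. Calcium and calpains had 3 positive and 1 negative of 73 (5.48%). The plasma membrane calcium pump contig (Unigene10465), which exports calcium, had medians of 2.88, 3.92, 3.10 and 2.92 and an interaction of -0.54 ± 0.22.

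**Figure D5:**
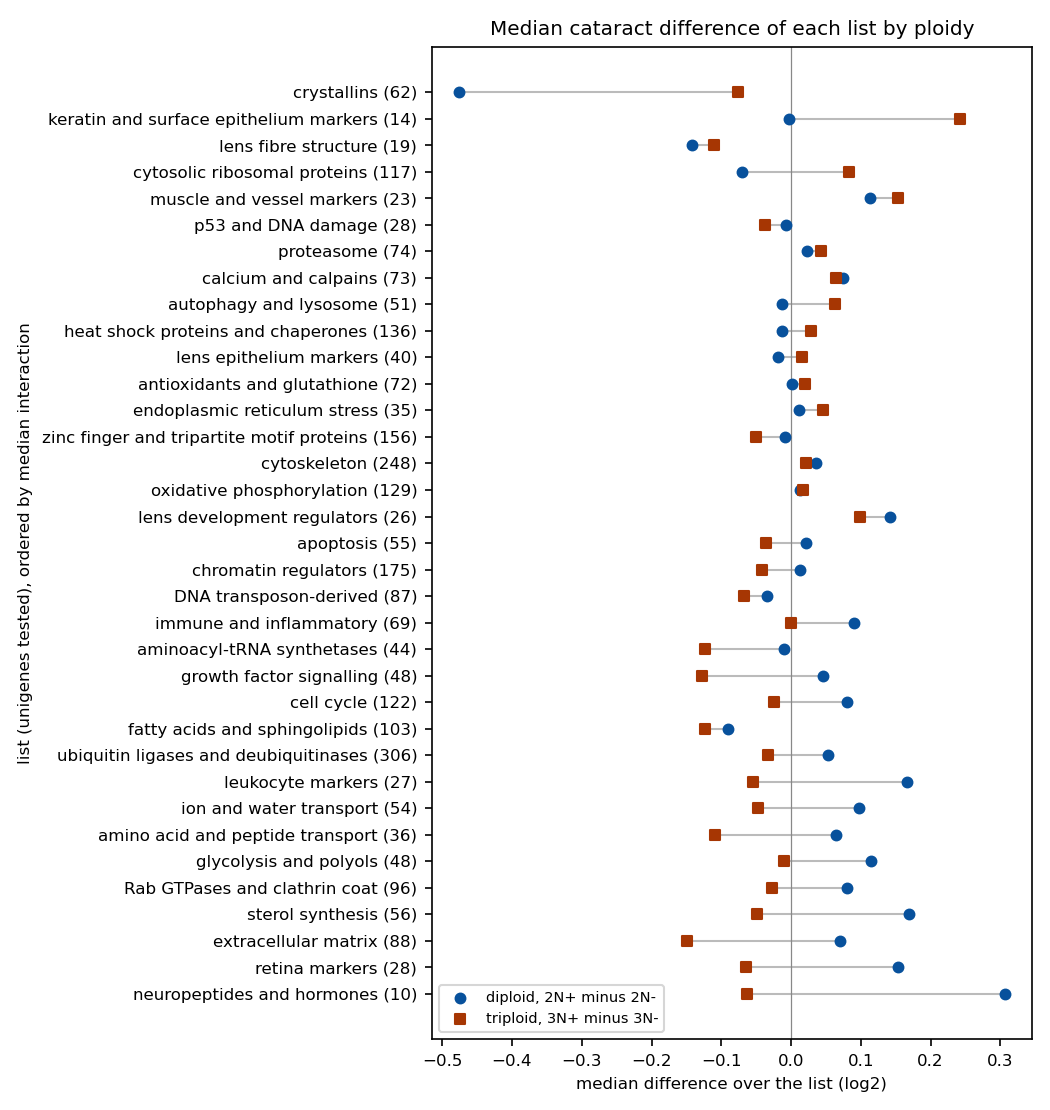
Median log2 cataract difference over each list in diploids (circles) and triploids (squares), with the number of unigenes tested in parentheses, for the 35 lists with at least 10, ordered by median interaction. Crystallins lie at the top, at -0.48 in diploids and -0.08 in triploids, while most other lists lie within 0.2 of 0 in each ploidy.

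Among markers of other tissues, the keratin and surface epithelium list had 14 of 14 interactions positive, with a median of 0.43 and none at an unadjusted p below 0.05. Its medians were -0.003 in diploids and 0.24 in triploids, and 10 of 14 were positive on RPKM as deposited and with body weight as a covariate. The 4 hemoglobin unigenes had a median difference of 2.07 in diploids and 1.78 in triploids, with none called, and took at most 0.117% of reads in any lens. With body weight as a covariate these medians were 0.88 and 1.59, and the median interaction turned from -0.27 to 0.65. The 27 unigenes of the leukocyte list had 2 positive and 4 negative interactions at an unadjusted p below 0.05 (22.2%, against 6.14% of all unigenes). The defining leukocyte transcript, 1 unigene, stayed below the filter. The defining pigment cell transcript, 1 unigene, had a negative interaction at an unadjusted p below 0.05 and took at most 0.000592% of reads. The parts of blood, pigment and surface tissue in the differences above were not tested.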

How the data were processed

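The authors deposited RPKM values, per the file header, for 26681 unigenes in 26 lens libraries (poly(A) RNA, 50-base single-end reads, per the labels and the series' design text), with the best protein hit of each unigene, the source of every name here. Assembler, aligner, counter and strand setting: not given in the sources used here. Therefore reads of near-identical copies and of antisense partners cannot be told apart. Whole reads were recovered for 100% of the 26681 unigenes within 0.01 reads, and the median unigene had 14 reads in a library, which limits the precision of unigenes of low level. A dash was read as 0.

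RPKM were divided by factors from the trimmed mean of M values (trims 0.3 and 0.05) of the recovered reads. Unigenes with at least 10 reads, at the median library size, in at least 6 libraries and at least 15 reads in all were kept. limma 3.58.1 (R 4.3.3, trend and robust) was run on log2(scaled RPKM + 0.5) with 4 group means, all 26 libraries and no covariate. The labels give weight and length, and body weight entered only as an alternative. Fold changes on this scale understate those of low unigenes. Tests were two-sided, with Benjamini-Hochberg adjustment of p over all unigenes tested. Values after ± are standard errors.

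Single measures were tested by exact permutation of the ploidy labels within lenses without and within lenses with cataract (2774772 arrangements), adjusted over 8 measures. The resulting p is exact for no ploidy difference in either set of lenses. Where the ploidies also differ without cataract, that difference widens the permuted spread, so the p is only approximate for the interaction. The scripts were tested on simulated data. The numbers shared by libraries of different groups did not pair them.

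Named unigenes have a hit naming a protein and log2 CPM averaging 1 or more: the 10 smallest interaction p in each direction, the 8 highest and 8 lowest shared changes, the 8 smallest p of each ploidy's calls, the 6 smallest interaction p among opposite differences, and in each list the smallest p and the most abundant; not all are printed. Unigene5783, Unigene3760 and Unigene4061 fall outside this rule. Members and lists were chosen with earlier results of these data known. Alternatives were RPKM as deposited, median-of-ratios scaling, pseudocounts of 0.1 and 1, no filter, voom with and without quality weights, body weight, component 1, a replicate block and each lens left out.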

Additional observations from a re-analysis of the deposited data

Results flagged for a closer look

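The interaction of the beta-sarcoglycan-like contig, Unigene5783, was -1.36 and passed the test of a difference between the ploidies. A rule for a lone lens marks 1 in 20 groups by chance if the groups are unselected and independent. Most unigenes examined were named for their results, and all share libraries, so the count was not compared with that rate. In 9 of 268 groups of lenses examined, 1 lens stood apart from the rest of its group. Among 2N+ lenses these were the glycine cleavage system H protein at 21.1 scaled RPKM in lens 5, ceramide synthase 2-like at 4.91 and the tripartite motif protein 60-like contig at 10.6 in lens 4, ATP synthase subunit alpha at 21.4 in lens 6, and the gap junction alpha-8 contig, low at 5.17, in lens 5. Among triploids without cataract the Maf-like factor was low at 10.1 in lens 1, and a transposase contig (Unigene8528) was high at 47.6 in lens 2. Among triploids with cataract the phocein contig was high at 15.9 in lens 6. The sixth 2N- fish was lighter than its group, with a log2 weight of 6.78.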

How the results depend on the processing

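The count of interaction calls, 1 in the main analysis, was 0 on RPKM as deposited, with voom without quality weights and with body weight as a covariate, 1 with voom with quality weights and 2 with component 1; it was 0 in 20 and 1 in 6 of the 26 fits without 1 lens. RPKM as deposited gave 1315 diploid, 48 triploid and 1432 average calls and 712 unigenes of the same direction at an unadjusted p below 0.05 in both ploidies. voom on the recovered reads gave 355 diploid, 10 triploid and 545 average calls, and voom with quality weights 570 diploid and 42 triploid. Body weight gave 43 diploid and 249 average calls and 10 unigenes of opposite direction. Component 1 gave 780 diploid, 174 triploid and 1120 average calls, 710 of the same and 61 of opposite direction. Requiring p below 0.01 in both left 148 and 2. The replicate block gave 222 diploid, 4 triploid, 366 average and 1 interaction call, 4 crystallins with a positive interaction at an unadjusted p below 0.05 and a median hemoglobin interaction of 0.34; pairing by number had correlations above 0.1 in 11 of 24 pairs, and 3 of 26 libraries correlated best with their own number. The cause of these moves was not tested.

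Without 1 lens the diploid count ran from 76 (without 2N- 2) to 418 (without 2N+ 4), and was 161 without 2N- 1, 111 without 2N- 4, and 140, 103, 109 and 141 without 2N+ 2, 3, 5 and 6. The triploid count ran from 5 (without 3N- 3) to 43 (without 3N+ 5), and was 8 and 9 without 3N- 2 and 5, 33 without 3N+ 2 and 9 without 3N+ 7. The average count ran from 320 (without 2N- 2) to 606, with 341 and 346 without 3N- 2 and 3, and the interaction from 0 to 1. The same-direction count ran from 352 to 498, the opposite from 18 (without 2N- 2, 2N- 6 or 2N+ 2) to 48 (without 2N+ 5), and Pearson's r from 0.27 to 0.42. The interactions ran from -1.20 to -0.82 for log2 weight, -4.65 to -1.45 cm for length, -0.79 to -0.486 M for counted reads, -0.32 to -0.17 for the log2 scaling factor, 1.48 to 2.97 points for crystallin share, -0.60 to 0.90 for log2 connexin 43, -2.35 to 23.8 for component 1 and -7.64 to 3.91 for component 2. With medians in place of means the connexin 43 interaction reversed to -0.098. The interaction of heat shock cognate 71 kDa protein (CL574.Contig1) reversed to -0.19 on RPKM as deposited. Of the 524 average calls, 435 were also called on RPKM as deposited, 218 with body weight and 524 with component 1.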

Other observations

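Of the lists not described above, the DNA transposon-derived unigenes had 6 positive and 2 negative interactions at an unadjusted p below 0.05 among 87 (9.2%, against 6.14% of all unigenes), and 5 of them fell in diploids, where 1.1% of all unigenes did. A transposase contig (Unigene8528) had medians of 44.5 scaled RPKM in 2N-, 25.4 in 2N+, 32.4 in 3N- and 32.5 in 3N+. It fell by 0.98 in diploids (limma adjusted p = 0.0119), with an interaction of 0.98 ± 0.27 (adjusted p = 0.678). The neuropeptide and hormone list had 3 negative interactions among 10 unigenes at an unadjusted p below 0.05 (30%). Chromatin regulators had 3 positive and 2 negative among 175 (2.86%); the histone acetyltransferase type B catalytic subunit (CL2930.Contig1), which acetylates new histones, had medians of 8.29, 6.90, 6.73 and 7.82 in 2N-, 2N+, 3N- and 3N+ and an interaction of 0.45 ± 0.14 (adjusted p = 0.678). Cytoskeletal unigenes had 6 positive and 4 negative among 248 (4.03%). The microtubule-actin cross-linking factor 1-like contig (Unigene3564) had medians of 3.58, 4.02, 5.59 and 4.40 and an interaction of -0.63 ± 0.20 (adjusted p = 0.678).

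The immune and inflammatory list had 3 positive and 2 negative among 69 at an unadjusted p below 0.05 (7.25%, against 6.14% of all unigenes). The nuclear factor interleukin-3-regulated protein contig (Unigene10401), a circadian and immune repressor, had medians of 4.43, 5.75, 6.29 and 5.78 and an interaction of -0.49 ± 0.18 (limma adjusted p = 0.69). Derlin-2 (Unigene8836), a component of the machinery for export of misfolded proteins from the endoplasmic reticulum, had medians of 63.1, 44.6, 47.2 and 47.3 and an interaction of 0.48 ± 0.24 (adjusted p = 0.806).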
